A study of Mus musculus with 2 samples.

Results

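The 9 genes described here are the Toll-like receptors Tlr2, Tlr4, Tlr7 and Tlr13, the co-receptor Cd14, the adaptor Myd88 and the NF-kB feedback genes Nfkbia, Nfkbiz and Tnfaip3. They were chosen by name, and all 9 were found among the 31053 gene rows of the count table. Their RNA was counted in single cells of the optic nerve of mice, labelled macrophage and microglia, with 10x Genomics 3′ droplet capture (version 2 chemistry). The injured library came from 10-week-old Wildtype mice of the 129S1/SvlmJ strain whose nerve had been crushed 2 weeks earlier, at 8 weeks, and the uninjured library came from nerves of the same genotype, strain and age without a crush. Both sexes were used, and the number of animals pooled was not given in the sources used here. With 1 library per group there was no replicate check and no test between the groups.

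From injured nerves there were 727 cells with 3697992 unique molecular identifiers (UMIs, 1 for each captured transcript), and from uninjured nerves 51 cells with 87499 UMIs. Injured cells had a median of 1123 UMIs (500 to 53972) and uninjured cells one of 888 (458 to 11100). Levels are UMIs per 1000000 UMIs of the same cells (CPM), and 0 UMIs allow up to 0.811 CPM over all injured cells and 34.3 CPM over all uninjured cells. These are 3′ counts, which are not divided by gene length. No cell barcode occurred in both libraries. The labelled cell type was checked against 10 macrophage and microglia markers such as Csf1r and C1qa: all 10 were detected in both libraries, in every class of cells described below. Transcripts of oligodendrocytes were present too, with 8 markers that summed to 1174 CPM in injured against 8400.1 CPM in uninjured cells. A set of 10 genes of lipid-laden phagocytes, a state of macrophages, summed to 25353.5 CPM in injured against 571 CPM in uninjured cells. Their part in the results below was not tested. Of the uninjured cells, 1 carried 10194 haemoglobin UMIs among its 11100, and 5 injured cells carried at least 2 T or NK cell markers. Brackets hold exact 95% intervals, which cover counting error only.

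Toll-like receptors bind molecules of microbes or of damaged cells. Tlr2 and Tlr4 do so at the cell surface, with Cd14 handing over lipid ligands, while Tlr7 and Tlr13 read RNA inside endosomes. All these receptors can signal through Myd88, which leads to the release of NF-kB from its inhibitors and to the transcription of cytokine genes. Nfkbia, which encodes the inhibitor IkBα, and Tnfaip3, which encodes the ubiquitin-editing enzyme A20, are themselves NF-kB targets and shut the response down. Nfkbiz encodes the nuclear protein IkBζ, which helps turn on a second wave of target genes. In microglia and macrophages of the nervous system some of these genes, such as Nfkbia and Tnfaip3, are known as early responders to injury and to infection.

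Promoter windows of 5 of the 9 genes (Tlr2, Tlr13, Myd88, Nfkbia and Tnfaip3) were found in the RefSeq table on GRCm38.p6, from 250 bases before to 50 bases after the start of transcription. Windows of Tlr4, Tlr7, Cd14 and Nfkbiz were not used here. The windows of Nfkbia and Tnfaip3 are shown because their RNA moved together from cell to cell, and that of Tlr2 because it was the Toll-like receptor with most UMIs. All are on the minus strand, at chr12:55492598-55492897 for Nfkbia, chr10:19015361-19015660 for the upstream window of Tnfaip3 and chr3:83841559-83841858 for Tlr2. Capitals mark matches to the degenerate NF-kB (kappa B) consensus on either strand, and overlapping matches run together.
Nfkbia: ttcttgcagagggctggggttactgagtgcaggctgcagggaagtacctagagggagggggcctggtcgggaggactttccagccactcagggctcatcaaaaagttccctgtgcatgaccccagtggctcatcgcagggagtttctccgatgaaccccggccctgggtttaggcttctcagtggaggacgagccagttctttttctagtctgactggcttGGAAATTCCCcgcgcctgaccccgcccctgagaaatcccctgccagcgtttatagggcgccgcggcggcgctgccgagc
Tnfaip3: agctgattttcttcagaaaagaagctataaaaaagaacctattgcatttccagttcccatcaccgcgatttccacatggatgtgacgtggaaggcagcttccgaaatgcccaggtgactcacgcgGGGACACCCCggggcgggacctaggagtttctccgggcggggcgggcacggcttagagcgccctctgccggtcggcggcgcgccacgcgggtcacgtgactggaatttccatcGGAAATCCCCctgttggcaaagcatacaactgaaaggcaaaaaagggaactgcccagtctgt
Tlr2: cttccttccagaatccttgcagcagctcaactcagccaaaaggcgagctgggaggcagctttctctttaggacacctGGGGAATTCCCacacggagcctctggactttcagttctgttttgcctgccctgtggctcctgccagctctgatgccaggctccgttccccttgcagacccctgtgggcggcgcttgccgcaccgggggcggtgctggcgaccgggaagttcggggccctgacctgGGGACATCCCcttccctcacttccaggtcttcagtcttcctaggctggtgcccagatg

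The stricter motif GGGNNTTTCC, or GGAAANNCCC on the other strand, was present as GGAAATTCCC in the Nfkbia window, with its first base 29 bases before the start, and as GGAAATCCCC in the Tnfaip3 window, 12 bases before the start. This motif occurs in 1.63% of all 32851 windows of 300 bases in the table. The degenerate consensus occurs in 4.51% of them, and it was present in the windows of 3 of the 5 genes. Tlr2 had 3 such matches, of which GGGGAATTCC and GGGAATTCCC overlap at 173 and 172 bases before the start and GGGACATCCC begins 8 bases before it. Tnfaip3 also had GGGACACCCC, 125 bases before its start. The Tlr13 and Myd88 windows and the second Tnfaip3 window held no match to either motif. A match is a description of letters and not a binding site. The starts used here are those of RefSeq. In GENCODE vM21 the Tnfaip3, Tlr2, Myd88 and Tlr13 loci begin further upstream, at chr10:19015657, chr3:83841767, chr9:119341411 and chrX:106143204. The Myd88 window and the second Tnfaip3 window thus lie wholly inside the annotated genes, and the upstream Tnfaip3 window nearly so. Of the Tlr2 and Tlr13 windows a part lies inside. The lack of a match in the Myd88 window therefore does not describe the bases before its GENCODE start.

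Across all cells, Cd14 was higher in the injured library, Tlr2, Nfkbiz and Tnfaip3 were lower, and the Nfkbia interval spanned no difference. A gene was counted as higher or lower at a ratio of at least 1.5 after 10 CPM was added to both levels. By this rule 2 of the 9 genes were higher, Cd14 and Tlr7, and 4 were lower, Tlr2, Tlr4, Nfkbiz and Tnfaip3. For the 4021 genes that 10% or more of either library's cells held, 32.8% were higher and 21.8% were lower. Of the 9 genes, 7 passed that filter and Tlr4 and Myd88 did not. The median log2 ratio of the 9 genes was −0.39, beside 0.17 for all genes compared. The Cd14 call depended on how cells were weighted: its log2 ratio was 0.68 over summed UMIs, but 0.18 with equal weight per cell, 0.30 with cells thinned to 500 UMIs, 0.48 without the haemoglobin-rich uninjured cell, 0.48 without the deepest cell of each library and −0.50 in cells under 5000 UMIs, none of which passes the rule as higher. Tlr2 and Nfkbiz were lower under every one of these settings, and so was Tnfaip3.

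**Figure D1:**
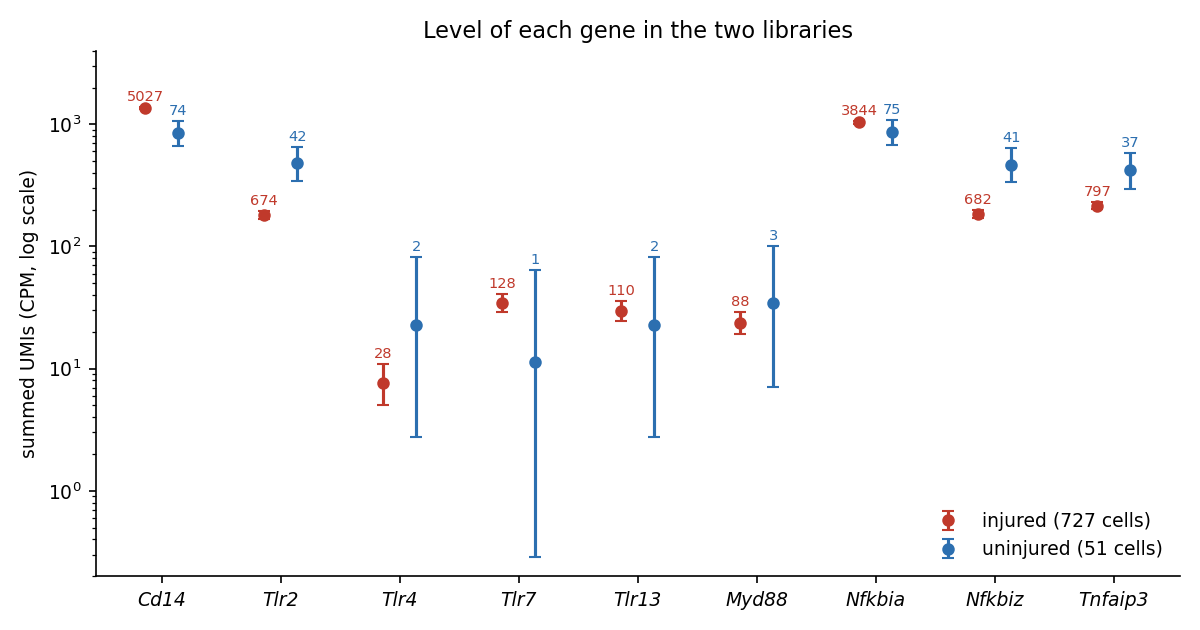
Level of each of the 9 genes in the injured library (red, 727 cells) and the uninjured library (blue, 51 cells), as summed UMIs in CPM on a log axis, with exact 95% Poisson intervals and the number of UMIs above each point. Tlr2, Nfkbiz and Tnfaip3 lie lower in the injured library and Cd14 lies higher, while Tlr4, Tlr7, Tlr13 and Myd88 rest on 1 to 3 uninjured UMIs each.

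Of the surface receptors, Cd14 (chr18:36725067-36726798, minus strand, mm10) was by far the most abundant. It had 5027 UMIs or 1359 CPM (1322 to 1397) in injured cells and 74 UMIs or 846 CPM (664 to 1062) in uninjured cells, a ratio of 1.61 (1.28 to 2.05). Cd14 was seen in 52.0% of injured cells and 43.1% of uninjured cells, and in 28.5% and 22.4% of them after thinning every cell to 500 UMIs, for which 2 uninjured cells were too shallow. The intervals of these shares overlapped. Among all genes it ranked 113th by UMIs in injured cells and 157th in uninjured cells.

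Tlr2 (chr3:83836272-83841767, minus strand), the receptor for bacterial lipopeptides, moved the other way. It had 674 UMIs or 182 CPM (169 to 197) in injured cells and 42 UMIs or 480.0 CPM (346 to 649) in uninjured cells, and was thus 2.63-fold lower (1.88 to 3.60). The share of cells with a Tlr2 UMI was nevertheless similar, at 25.4% of injured and 21.6% of uninjured cells. Tlr4 (chr4:66827584-66930284, plus strand), the receptor for bacterial lipopolysaccharide, was scarce in both libraries, with 28 UMIs or 7.57 CPM in injured cells and 2 UMIs or 22.9 CPM in uninjured cells. Its ratio of 0.331 (0.0835 to 2.87) spans both directions.

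Both endosomal receptors were scarce. Tlr7 (chrX:167304929-167330558, minus strand), which recognises single-stranded RNA, had 128 UMIs or 34.6 CPM (28.9 to 41.2) in injured cells and 1 UMI or 11.4 CPM in uninjured cells. Although counted as higher, its ratio of 3.03 has an interval of 0.534 to 120.5. Tlr13 (chrX:106143204-106160493, plus strand), which recognises bacterial ribosomal RNA, had 110 UMIs or 29.7 CPM (24.4 to 35.9) in injured cells and 2 UMIs or 22.9 CPM, both in 1 cell, in uninjured cells. The ratio of 1.301 (0.352 to 10.9) shows no direction. For Tlr7 and Tlr13 a difference of the size seen for Cd14 was not detectable at this depth.

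Myd88 (chr9:119335934-119341411, minus strand) had 88 UMIs or 23.8 CPM (19.1 to 29.3) in injured cells and 3 UMIs or 34.3 CPM (7.07 to 100.2) in uninjured cells, a ratio of 0.694 (0.230 to 3.43). Its locus overlaps Slc22a14 on the same strand and Acaa1a on the other, so its counts are uncertain to the extent that reads were shared. The other 8 genes overlap no annotated gene in GENCODE vM21.

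Among the feedback genes, Nfkbia (chr12:55489410-55492647, minus strand) was the most abundant. It had 3844 UMIs or 1039 CPM (1007 to 1073) in injured cells and 75 UMIs or 857 CPM (674 to 1074) in uninjured cells, a ratio of 1.21 (0.965 to 1.545). Nfkbiz (chr16:55811375-55838899, minus strand) had 682 UMIs or 184 CPM (171 to 199) in injured cells and 41 UMIs or 469 CPM (336 to 636) in uninjured cells, 2.54-fold lower (1.81 to 3.48). Tnfaip3 (chr10:19000910-19015657, minus strand) had 797 UMIs or 216 CPM (201 to 231) in injured cells and 37 UMIs or 423 CPM (298 to 583) in uninjured cells, 1.96-fold lower (1.37 to 2.73). Over all cells the 3 feedback genes thus did not share a call: the intervals of Nfkbiz and Tnfaip3 lay below a ratio of 1 and that of Nfkbia included it. In cells under 5000 UMIs all 3 were counted as lower. The ratios there were 0.655 (0.470 to 0.936) for Nfkbia, 0.343 (0.213 to 0.577) for Nfkbiz and 0.499 (0.308 to 0.854) for Tnfaip3.

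The uninjured levels rested on few cells. A single deep uninjured cell of 9567 UMIs held 78 UMIs of the 9 genes, among them 15 of Tlr2, 17 of Cd14, 22 of Nfkbia, 14 of Nfkbiz and 9 of Tnfaip3. The next cells held 36 and 34, and 20 of the 51 uninjured cells held none. Without the uninjured cell richest in each gene the ratio was 0.526 (0.358 to 0.804) for Tlr2, 0.532 (0.363 to 0.814) for Nfkbiz and 0.624 (0.429 to 0.945) for Tnfaip3, so all 3 stayed lower. Cd14 stood at 1.86 (1.43 to 2.46), and Nfkbia at 1.53 (1.17 to 2.04), which then passed the rule as higher. The 5 cells richest in Tlr2 held 13.2% of its injured UMIs and 85.7% of its uninjured UMIs, and for Cd14 these shares were 13.9% and 59.5%.

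As a measure of free RNA, the 5 injured cells with T or NK cell markers, of 834 to 6332 UMIs, held no UMI of Tlr2, Tlr4, Tlr7, Tlr13, Cd14 or Myd88 (0 of 5 cells, which allows up to 52.2%). Of the 45 injured cells with at least 5000 and under 15000 UMIs, 86.7% had a Cd14 UMI and 55.6% a Tlr2 UMI. The marked cells of 834 and 3578 UMIs lie below that range. No uninjured cell held at least 2 T or NK cell markers, so free RNA in that library was not measured. The feedback genes were present in these T cell-marked cells. Nfkbia had 71 UMIs in 3 of them, Tnfaip3 24 UMIs in all 5 and Nfkbiz 2 UMIs in 1. T cells are known to express Nfkbia and Tnfaip3, so these cells give no background for those genes.

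Both libraries were divided by depth and by Malat1, a long non-coding RNA kept in the nucleus. Deep cells had at least 5000 UMIs (144 injured and 4 uninjured cells), and the shallower cells were called Malat1-rich when Malat1 took at least 1% of their UMIs (91 injured and 17 uninjured cells) and Malat1-poor otherwise (492 injured and 30 uninjured cells). Near this divide, with Malat1 at 0.5% to 2% of UMIs, lay 59 injured and 1 uninjured cells. The uninjured library is thus set beside the injured one at a different mix of classes. RNA quality differed too: the median mitochondrial share in injured and uninjured cells was 2.36% and 3.82% in deep, 10.7% and 3.11% in Malat1-rich, and 0.503% and 8.11% in Malat1-poor cells. Its part in the results was not tested.

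In deep cells the contrast was the one seen in all cells. Cd14 stood at 1533 CPM (1489 to 1578) in injured cells and 696 CPM (450 to 1027) in uninjured cells, a ratio of 2.20 (1.49 to 3.41). Tlr2 was 3.35-fold lower (2.10 to 5.07), with 191 CPM in the injured against 640.0 CPM in the uninjured cells, Nfkbiz was 2.84-fold lower (1.72 to 4.43), with 196 and 557 CPM, and Tnfaip3 was 2.24-fold lower (1.32 to 3.57), with 224 and 501 CPM. Nfkbia differed little, with 1177 CPM in the injured against 1002 CPM in the uninjured cells and a ratio of 1.17 (0.847 to 1.68). By the rule 3 of the 9 genes were higher and 4 were lower, beside 49.8% and 15% of the genes compared. Of the genes counted as higher, Tlr4 and Tlr7 had 0 uninjured UMIs, which allows up to 83.5 CPM, more than their injured levels of 8.13 and 38.6 CPM. Tlr13, the fourth gene counted as lower, had 2 uninjured UMIs.

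At a matched depth of 5000 to under 15000 UMIs the picture held, but for Cd14 it did not hold in shallower cells. All 4 deep uninjured cells had between 5000 and 15000 UMIs, and the 45 injured cells of that range had 194 CPM of Tlr2, 184 CPM of Nfkbiz and 277 CPM of Tnfaip3, and 1636 CPM of Cd14. Their Nfkbia level was 1007 CPM, against 1002 CPM in the uninjured cells.

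The deep uninjured group includes the haemoglobin-rich cell, which held no UMI of any of the 9 genes. In the other 3 cells Tlr2 stood at 338, 781 and 1568 CPM, against a median of 146 CPM and a range of 0 to 918 CPM in the 144 injured cells. The ranges overlapped, but only 1.39% of injured cells lay above the middle uninjured cell. Nfkbiz stood at 226, 624 and 1463 CPM in these 3 cells, with 10.4% of injured cells above the middle one, and Tnfaip3 at 0, 941 and 1405 CPM, with 4.17% above it. Nfkbia stood at 226, 1873 and 2299.6 CPM, with 20.8% of injured cells above the middle one, and Cd14 at 451, 624 and 1777 CPM, with 64.6% above it. Without the haemoglobin-rich cell the summed levels in injured cells were 4.84-fold lower (3.04 to 7.34) for Tlr2, 4.11-fold lower (2.49 to 6.41) for Nfkbiz and 3.24-fold lower (1.91 to 5.17) for Tnfaip3, while Cd14 had a ratio of 1.52 (1.03 to 2.36) and Nfkbia one of 0.812 (0.585 to 1.16). The injured cells and these 3 uninjured cells also differed in MHC class II genes, which stood at 5073 CPM against 25648 CPM. Border macrophage markers (8 genes) summed to 786 CPM against 2496 CPM, but 88.2% of the injured cells held them, at a median of 588 CPM, and only 1 of the 3 uninjured cells did. The part of these differences in the result was not tested.

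In Malat1-rich cells the Cd14 ratio lay below 1 at the divide of 5000 UMIs, without passing the 1.5-fold rule. Cd14 stood at 993 CPM (851 to 1152) in injured cells and 1484 CPM (1049.9 to 2036) in uninjured cells, a ratio of 0.669 (0.469 to 0.977). Nfkbia was 1.89-fold lower (1.25 to 2.78), with 704 CPM in the injured against 1327 CPM in the uninjured cells, and Tlr2 was 2.03-fold lower (1.13 to 3.48), with 346 and 703 CPM. Nfkbiz had 460 CPM in the injured against 781 CPM in the uninjured cells, and Tnfaip3 601 against 703 CPM, with intervals that included no difference. Of the 9 genes 1 was higher and 6 were lower, beside 36.4% and 30.7% of the genes compared. The 1 gene counted as higher, Tlr13, had 5 injured and 0 uninjured UMIs, and of those counted as lower Tlr4, Tlr7 and Myd88 had at most 2 uninjured UMIs. These values depended on the depth divide. With cells under 3000 UMIs the Malat1-rich ratios were 0.750 (0.488 to 1.19) for Cd14, 0.704 (0.456 to 1.117) for Nfkbia and 1.06 (0.486 to 2.62) for Tlr2, and with cells under 10000 UMIs they were 1.11 (0.845 to 1.47), 0.703 (0.539 to 0.928) and 0.364 (0.247 to 0.544). A single uninjured cell of 3063 UMIs held 10 of the 18 Tlr2 UMIs and 10 of the 38 Cd14 UMIs of the uninjured Malat1-rich cells. Markers of cell types moved with this contrast: microglia markers summed to 2667 CPM in the injured against 15695 CPM in the uninjured Malat1-rich cells, macrophage markers to 12450 against 22528 CPM and oligodendrocyte markers to 2729 against 7652 CPM. Their part in it was not tested.

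In Malat1-poor cells little could be told. Uninjured cells held 11 UMIs of Cd14, 5 of Nfkbia, 1 each of Tlr2, Nfkbiz and Tnfaip3 and none of the other 4 genes. Cd14 had 571 CPM in the injured against 424 CPM in the uninjured cells, a ratio of 1.35 (0.743 to 2.73), and Nfkbia had 431 CPM and 193 CPM, a ratio of 2.24 (0.945 to 6.95). By the rule 5 of the 9 genes were higher and 0 were lower, beside 47.8% and 19.8% of the genes compared. Of the 5, Tlr7, Tlr13 and Myd88 had no uninjured UMI and Tlr2 had 1, and every interval of the 9 genes included no difference.

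**Figure D2:**
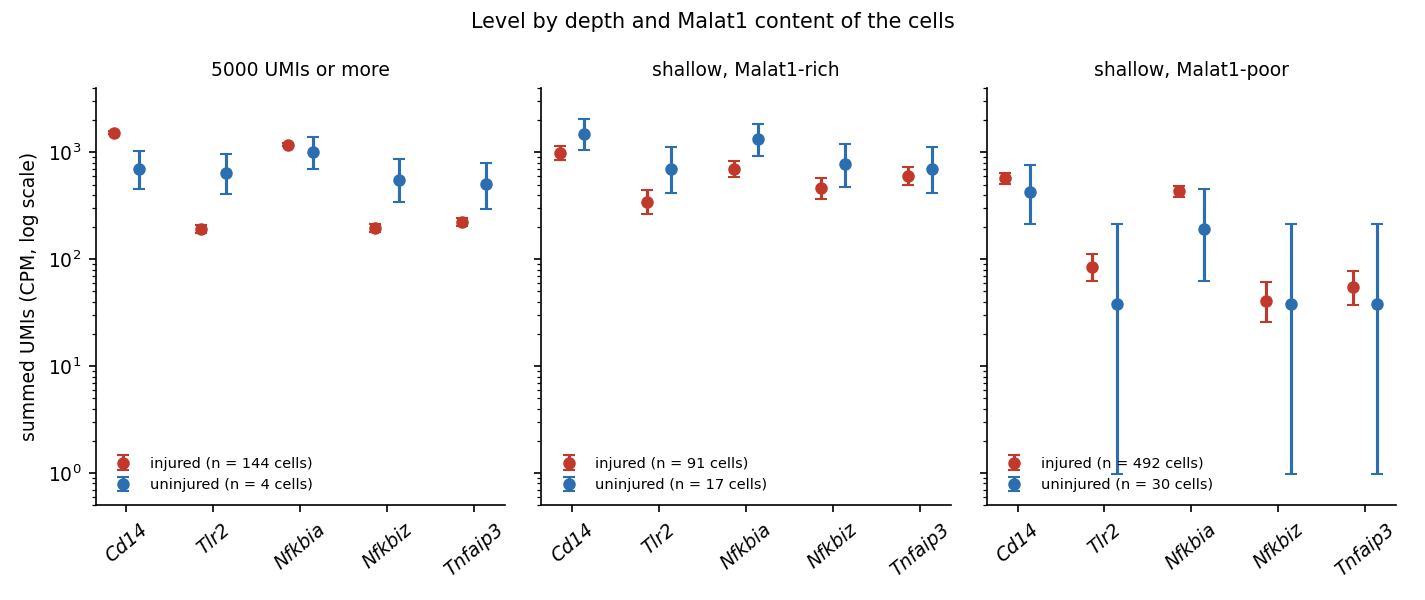
Levels of Cd14, Tlr2, Nfkbia, Nfkbiz and Tnfaip3 in summed CPM on a log axis, with exact 95% Poisson intervals, in injured (red) and uninjured (blue) cells of at least 5000 UMIs (left), Malat1-rich shallow cells (middle) and Malat1-poor shallow cells (right). Cd14 lies higher in injured deep cells (1533 against 696 CPM) and lower in injured Malat1-rich cells (993 against 1484 CPM), where a divide of 10000 UMIs gives a ratio of 1.11, and the Malat1-poor uninjured intervals are wide.

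Within the injured library, Malat1-rich cells had the highest levels of Nfkbiz, Tnfaip3 and Tlr2, and deep cells those of Cd14 and Nfkbia. Nfkbiz had 196 CPM in deep, 460 CPM in Malat1-rich and 40.4 CPM in Malat1-poor cells, and Tnfaip3 had 224, 601 and 54.5 CPM. In Malat1-rich relative to Malat1-poor cells Nfkbiz was 11.4-fold higher (7.08 to 18.9) and Tnfaip3 11.0-fold higher (7.34 to 17.0). With the other depth and Malat1 divides tried, these ratios were 6.37 to 16.1 for Nfkbiz and 8.06 to 13.3 for Tnfaip3. Tlr2 followed the same order, with 191, 346 and 84.4 CPM, but a smaller ratio of 4.10 (2.76 to 6.12). Cd14 and Nfkbia had another order. Cd14 had 1533 CPM in deep, 993 CPM in Malat1-rich and 571 CPM in Malat1-poor cells, and Nfkbia 1177, 704 and 431 CPM, with Malat1-rich over Malat1-poor ratios of 1.74 (1.44 to 2.10) and 1.63 (1.31 to 2.04). Tlr13 hardly differed between the classes, with 30.5, 28.4 and 26.4 CPM, and Tlr7 had 38.6, 17.0 and 19.3 CPM. Macrophage and microglia markers summed to 35949 CPM in deep, 12450 CPM in Malat1-rich and 35460 CPM in Malat1-poor injured cells, so the class with most Nfkbiz and Tnfaip3 was also the one with least of those markers and with the highest mitochondrial share. Whether these move the levels was not tested.

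The same split held for shares of cells thinned to 500 UMIs. Tnfaip3 was seen in 25.3% of Malat1-rich and 3.25% of Malat1-poor injured cells, Nfkbiz in 13.2% and 2.44%, and Tlr2 in 15.4% and 3.05%. For Cd14 the shares were 33.0% and 25%, with overlapping intervals.

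Other genes of the pathway came from lists drawn up with earlier results of these data known, and a listed gene was compared when at least 5% of the cells of a library held it. Of all 6680 genes past this minimum, 30.3% were higher and 25.3% were lower over all cells. The other Toll-like receptors all fell under this minimum. In injured and uninjured cells, Tlr1 had 25 and 2 UMIs, Tlr3 28 and 1, Tlr6 11 and 0, Tlr8 38 and 0, Tlr9 3 and 0, Tlr11 1 and 0 and Tlr12 7 and 2, and Tlr5 had none. Of 6 receptor partners 3 were higher and 0 were lower. Ly96, the Tlr4 co-receptor MD-2, had 114 injured and 0 uninjured UMIs. The chaperone genes Cnpy3 and Hsp90b1 had ratios of 1.69 (0.651 to 6.23) and 1.52 (1.07 to 2.22), and Unc93b1, which carries endosomal receptors to their compartment, had one of 1.299 (0.951 to 1.82).

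Of 13 adaptors and kinases 3 were higher, each on 0 uninjured UMIs, and 4 were lower. Map3k7, which encodes the kinase TAK1, was 6.88-fold lower (2.61 to 15.4), Ikbkg, which encodes the NEMO subunit of the IkB kinase, 6.26-fold lower (1.59 to 18.0), and Map3k8 3.41-fold lower (2.08 to 5.33). Tbk1 had 121 injured and 0 uninjured UMIs. Of the 5 NF-kB subunits Rela was 3.09-fold lower (1.38 to 6.06) and Rel 2.34-fold lower (1.61 to 3.31), Nfkb1 had a ratio of 0.984 (0.530 to 2.07), and Relb and Nfkb2, counted as higher, had 1 uninjured UMI each.

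Of 16 other inhibitors of the response 5 were higher and 5 were lower. Socs3, a brake on cytokine receptor signalling, was 3.95-fold lower (3.35 to 4.64) and Zfp36, which speeds the decay of cytokine mRNA, 3.39-fold lower (2.82 to 4.06). Ier3 was 3.55-fold higher (1.72 to 8.86), and Tnip1, which encodes a partner of A20, had 97 injured and 0 uninjured UMIs. Of 20 cytokine and other NF-kB target genes 5 were higher and 10 were lower over all cells, whereas in Malat1-poor cells 14 were higher and 3 were lower, beside 53.5% and 22.7% of genes. The 30 uninjured Malat1-poor cells held only 41 UMIs of the full list of 25 target genes, and 13 of the 25 had none. The chemokine genes Cxcl10 and Ccl4 were 12.0-fold (9.65 to 14.8) and 9.60-fold lower (8.55 to 10.75), the cytokine gene Il1a was 5.68-fold lower (4.36 to 7.32), and the chemokine gene Cxcl1 was 8.94-fold higher (2.47 to 74.0), on 2 uninjured UMIs.

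Of 17 immediate early and heat shock genes, which cell isolation is known to induce, 1 was higher and 12 were lower. Klf2 was 4.14-fold lower (3.35 to 5.08) and Dnajb1 4.73-fold lower (2.68 to 7.82). Hspa1a and Hspa1b, near-identical copies whose counts are uncertain, were 9.57-fold and 17.6-fold lower. For Hspa1a this lay in Malat1-rich cells, with 51.1 CPM in injured against 3475 CPM in uninjured cells. In deep cells it had 136 against 139 CPM, and in Malat1-poor cells 7.03 against 0 CPM. The list thus lay lower in injured cells together with Nfkbiz and Tnfaip3. Summed, it stood at 8751 CPM in injured against 15138 CPM in uninjured deep cells, at 7797 and 29750.5 CPM in Malat1-rich cells, and at 3015 and 5010 CPM in Malat1-poor cells. Its part in the levels of the 9 genes was not tested.

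Relations among the 9 genes were described over the 144 deep injured cells, as Pearson correlations of log(1 + UMIs per 10000). These cells share 1 library and differ in depth, and no p-value is given. The 3 feedback genes went together: r was 0.711 for Nfkbia and Nfkbiz, 0.702 for Nfkbia and Tnfaip3 and 0.588 for Nfkbiz and Tnfaip3. The surface receptors Tlr2 and Cd14 had an r of 0.574. Between them and the feedback genes the 6 values ran between 0.129 for Cd14 with Tnfaip3 and 0.475 for Cd14 with Nfkbiz. The 26 pairs that include Tlr4, Tlr7, Tlr13 or Myd88 ran between −0.139 and 0.243, with a median of 0.0490, and these genes are sparse. With every cell thinned to 5000 UMIs the values were 0.577 for Nfkbia with Nfkbiz, 0.558 for Nfkbia with Tnfaip3 and 0.478 for Tlr2 with Cd14.

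**Figure D3:**
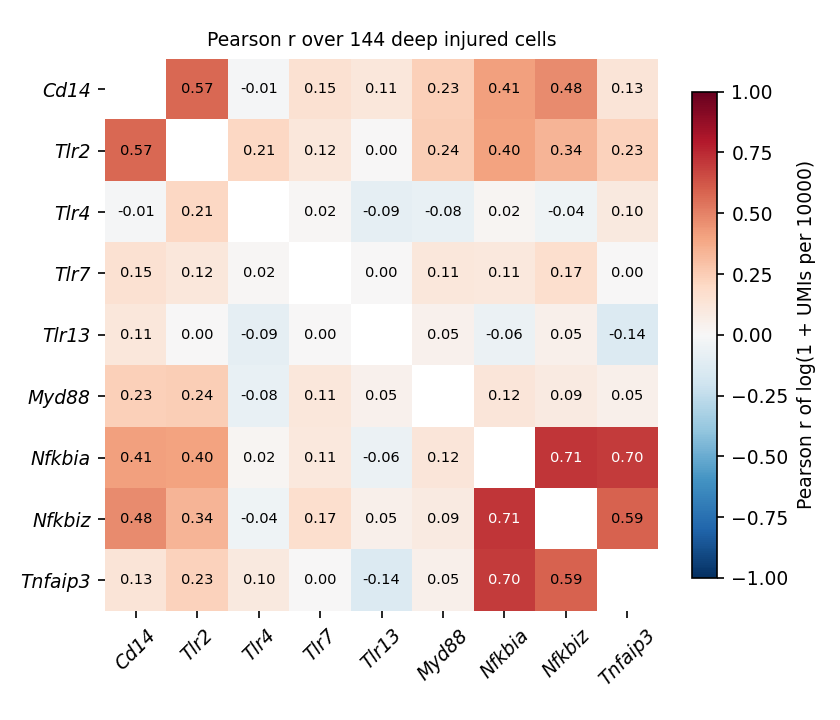
Pearson correlation of log(1 + UMIs per 10000) for each pair of the 9 genes over 144 deep injured cells, coloured between −1 (blue) and 1 (red). The 3 feedback genes form the block of highest values (0.588 to 0.711), Tlr2 with Cd14 follows (0.574), and Tlr4, Tlr7, Tlr13 and Myd88 lie near 0.

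Some deep injured cells carried genes of other leukocytes. In 7 of them the C1q chains, a macrophage marker, summed to under 1000 CPM. The T cell genes Il17a, Trdc, Cd3d and Cd3g, each with UMIs in 2 or 3 of them, were among the 15 genes highest relative to the other deep injured cells. So were Plbd1 and Napsa, each in 3 of them, Epcam in 2 and Plac8 in 1, and the 7 cells were not assigned to 1 cell type. These 7 cells had 534 CPM of Tnfaip3 and 1489 CPM of Nfkbia but 114 CPM of Cd14 and 34.1 CPM of Tlr2, against 214, 1167, 1577 and 196 CPM in the other 137 cells. At any depth, 23 injured cells held at least 2 neutrophil markers, and with them 9.03% of Cd14 and 6.89% of Nfkbia UMIs of the library. Their median was 22741 UMIs, against 1123 over all injured cells, and 18 of them were deep. These shares can thus not be read as enrichment. Of the deep injured cells, 78.5% held at least 1 neutrophil marker, and these markers summed to only 122 CPM. Over the 120 deep injured cells with at least 1000 CPM of C1q chains and under 2 markers of another leukocyte, r was 0.585 for Cd14 with Nfkbia, against 0.413 over all 144, and 0.341 for Cd14 with Tnfaip3, against 0.129. The feedback pairs stayed at 0.604 to 0.729.

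**Figure D4:**
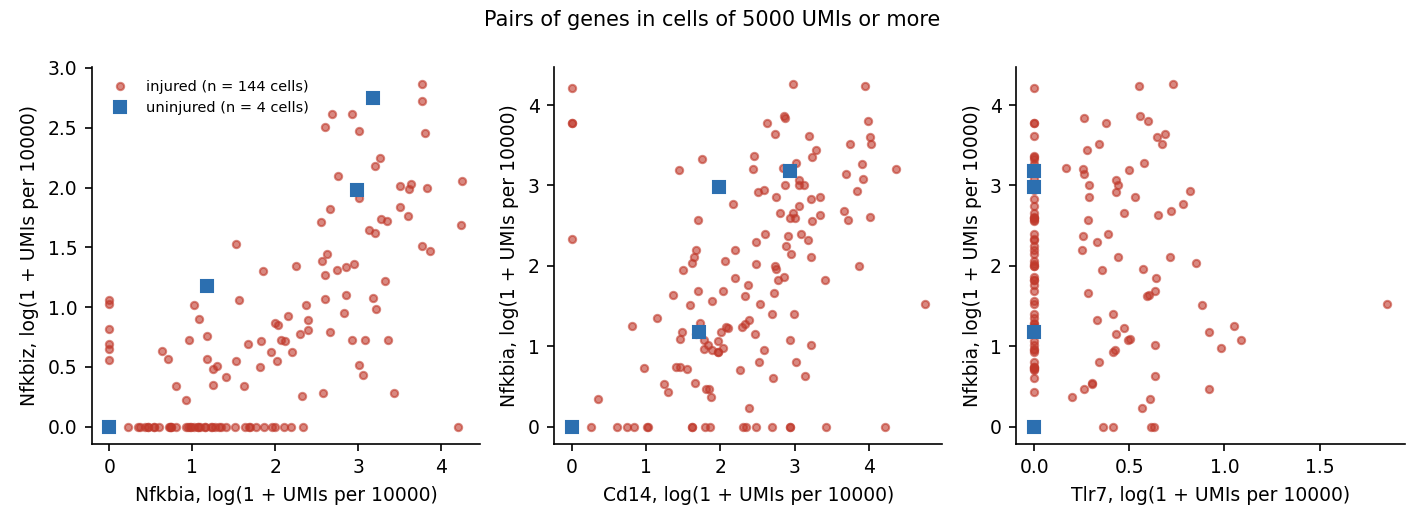
Level per cell as log(1 + UMIs per 10000) in 144 injured cells (red circles) and 4 uninjured cells (blue squares) of at least 5000 UMIs: Nfkbiz against Nfkbia (left), Nfkbia against Cd14 (middle) and Nfkbia against Tlr7 (right). Nfkbiz climbs with Nfkbia (r = 0.711 over injured cells), Nfkbia with Cd14 more loosely (0.413), and Tlr7 shows no such slope (0.108). The uninjured cell at 0 in each panel is the haemoglobin-rich one.

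Detection at an equal 5000 UMIs showed the same. Nfkbiz was seen in 46.9% of the 113 cells with Nfkbia and in 12.9% of the 31 cells without it, and Tnfaip3 in 58.4% and 22.6% of them. Tnfaip3 was seen in 78.9% of the 57 cells with Nfkbiz and in 32.2% of the 87 cells without it. Of the 144 cells 21 showed none of the 3 feedback genes, 47 showed 1, 32 showed 2 and 44 showed all 3. Over these 4 steps the mean of Cd14 was 4.10, 6.62, 7.44 and 12.2 UMIs per 5000 and that of Tlr2 was 0.429, 0.766, 1.31 and 1.64, while Tlr7 stayed between 0.106 and 0.3125 without order. At 5000 UMIs the variance over the mean was 11.0 for Cd14, 10.2 for Nfkbia, 2.94 for Nfkbiz, 2.65 for Tnfaip3 and 2.11 for Tlr2. For the other 4 it was 0.860 to 1.15, where counting alone gives 1. For a given relative spread between cells this measure rises with the mean count, so it does not order the genes by spread. The mean was 8.125 UMIs for Cd14 and 5.76 for Nfkbia, but at most 0.201 for the other 4. At such low means a value near 1 does not show that cells were alike.

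The deep injured cells were then ordered by the summed level of 25 NF-kB target genes, none of them among the 9, and cut into tertiles of 48 cells with medians of 1634, 3185 and 12621 CPM of the targets. In the high relative to the low tertile Nfkbiz was 20.03-fold higher (12.9 to 32.7) and Nfkbia 15.3-fold higher (13.05 to 18.1). Tnfaip3 was 4.84-fold (3.82 to 6.20), Cd14 4.22-fold (3.87 to 4.62) and Tlr2 3.03-fold higher (2.38 to 3.87). Myd88 had a ratio of 1.94 (0.993 to 3.97), and Tlr7, Tlr13 and Tlr4 ones of 1.01, 1.23 and 0.576 with intervals on both sides of 1. Correlation with the target sum was 0.747 for Nfkbia, 0.726 for Nfkbiz, 0.584 for Tnfaip3, 0.583 for Cd14 and 0.466 for Tlr2.

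**Figure D5:**
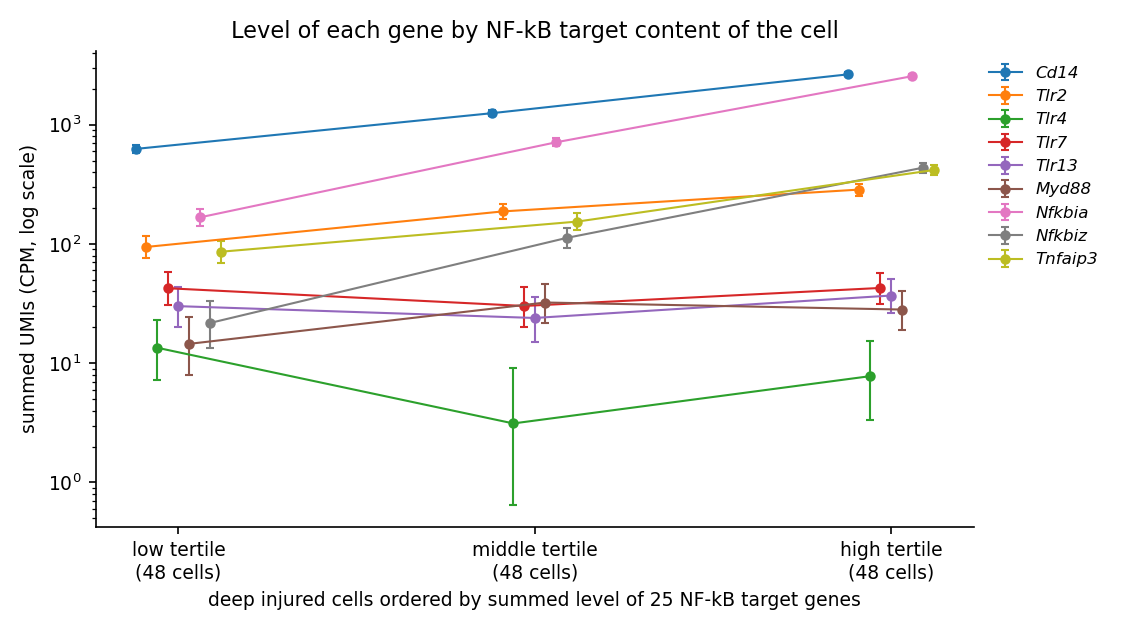
Summed level in CPM on a log axis, with exact 95% Poisson intervals, of each of the 9 genes in tertiles of 48 deep injured cells with low, middle and high summed levels of 25 NF-kB target genes. Nfkbia and Nfkbiz climb most steeply (15.3-fold and 20.03-fold between high and low tertile), Tnfaip3, Cd14 and Tlr2 less so, and Tlr7 and Tlr13 stay level.

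When the same cells were ordered by the summed level of the 17 immediate early and heat shock genes, the order of ratios was similar and all ratios of the 5 genes but that of Tnfaip3 were smaller. Nfkbiz was 12.2-fold (8.44 to 18.2), Nfkbia 8.20-fold (7.20 to 9.37), Tnfaip3 4.97-fold (3.88 to 6.44), Cd14 2.94-fold (2.69 to 3.21) and Tlr2 2.24-fold higher (1.76 to 2.88). The feedback genes therefore moved with both lists, and their correlations with the immediate early sum were 0.542 for Nfkbia, 0.573 for Nfkbiz and 0.522 for Tnfaip3. By contrast, ordered by 10 genes of lipid-laden phagocytes, the 5 genes were all lower in the high tertile. Nfkbiz was 1.83-fold (1.48 to 2.25) and Tlr2 1.49-fold lower (1.205 to 1.84). Tnfaip3 was 1.43-fold, Cd14 1.39-fold and Nfkbia 1.28-fold lower, with intervals that excluded no difference. Correlation with this sum was −0.273 for Tnfaip3, −0.246 for Nfkbia, −0.221 for Nfkbiz, −0.0401 for Tlr2 and 0.041 for Cd14. These values depended on the cells kept. Over the 120 C1q-bearing cells with under 2 markers of another leukocyte, all 5 were below 0. They were −0.0882 for Tnfaip3, −0.157 for Nfkbia, −0.266 for Nfkbiz, −0.218 for Tlr2 and −0.293 for Cd14. Ordered by microglia markers, Nfkbiz was 2.73-fold (2.105 to 3.58) and Tlr2 2.29-fold higher (1.805 to 2.92) in the high tertile. Nfkbia (2.09-fold), Cd14 (1.69-fold) and Tnfaip3 (1.35-fold) were higher there too, and Tlr13 was 2.09-fold lower (1.18 to 3.79). Correlations with the microglia sum were 0.397 for Cd14 and 0.289 for Tlr2, but −0.0566 for Nfkbiz, −0.123 for Nfkbia and −0.328 for Tnfaip3. All but that of Tlr2 changed sign over the 120 C1q-bearing cells. There they were −0.0242 for Cd14, 0.183 for Tlr2, 0.0272 for Nfkbiz, 0.151 for Nfkbia and 0.0699 for Tnfaip3. Ordered by border macrophage markers, Tlr7 was 2.12-fold (1.22 to 3.81), Cd14 1.61-fold and Nfkbiz 1.34-fold higher in the high tertile. Tnfaip3 was 1.44-fold lower, and Nfkbia was lower too.

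The genes most like each member over these cells were looked up among 8142 genes detected in 10% or more of them. Gadd45b, a stress-induced gene that was also in the target list, came first for Nfkbia (r = 0.713) and for Nfkbiz (0.720), and after Nfkbia and Nfkbiz for Tnfaip3 (0.574). Nfkbiz also had Sdc4, a heparan sulfate proteoglycan of the cell surface, among its 3 (0.628). Cd83, an activation marker of myeloid cells, came first for Cd14 (0.657) and after Cd14 for Tlr2 (0.487), and each of Cd14 and Tlr2 was among the 3 most like the other. Plek for Cd14 (0.530) and Marcksl1 for Tlr2 (0.465) completed these. Tlr7 had Gab3 (0.452), Tlr13 had Dtx3l (0.350) and Myd88 had Opa3 (0.408) at the top, values that fell to 0.140, 0.0123 and 0.162 when cells were thinned to 5000 UMIs. Tlr4 was seen in 13.2% of these cells and was not searched.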

How the data were processed

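Both libraries came in 1 deposited table, which holds raw UMI counts (whole numbers) by gene and cell and a line naming each cell's condition. Per the submitters' processing notes, Cell Ranger 1.3, bcl2fastq 2.17.1.14, Seurat 4.0.3 and the build mm10 were used. Per the series' design text, cells had 200 to 6500 genes. The selection of macrophages and microglia was not given in the sources used here.

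UMIs were summed per library or class and scaled to CPM (Python 3.11.15, numpy 2.4.6, scipy 1.17.1, pandas 2.3.3). Intervals are exact: Poisson for levels, Clopper-Pearson for shares, conditional binomial for ratios. A count of 0 was read as up to 3 UMIs. For log2 ratios 10 CPM was added to both levels as a pseudocount, so ratios of scarce genes are understated. In the table, 26 rows with date-like names stayed in totals only. No doublet caller was run, and doublets were not removed.

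All 9 members are named. From each other list up to 4 genes with the largest log2 ratio are named, and for each member seen in at least 20% of deep injured cells the 3 most correlated genes. The 7 cells low in C1q chains, and the leading genes named for them, were singled out after their values were seen. The members and lists were chosen with earlier results of these data known. The stress of cell isolation and the tissue's handling are shared by all cells of a library and cannot be told apart from injury. Positions are from GENCODE vM21 on mm10, and promoter windows from RefSeq on GRCm38.p6. Alternatives covered pseudocounts, cell weights, thinning, depth and Malat1 classes, filters, and cells left out. Those chosen after seeing the data leave out the uninjured cell with most UMIs of the 9 genes, leave out the haemoglobin-rich cell among deep cells, or keep C1q-bearing cells in the correlations.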

Additional observations from a re-analysis of the deposited data

How the results depend on the processing

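The count of higher genes, 2 of 9, was 1 with a pseudocount of 50 CPM, with equal weight per cell, without the haemoglobin-rich uninjured cell, without the deepest cell of each library, in cells under 5000 UMIs and in Malat1-rich cells, and 5 in Malat1-poor cells. The 1 gene was Cd14 with the pseudocount of 50 CPM, Tlr7 without the haemoglobin-rich or the deepest cells, and Tlr13 with equal weight, under 5000 UMIs and in Malat1-rich cells. The count of lower genes, 4, was 0 in Malat1-poor cells, where the median log2 ratio was 0.96. Among the genes called over all cells, log2 ratios changed sign for Cd14 (−0.50) and Tlr7 (−0.030) in cells under 5000 UMIs, for Cd14 (−0.57) and Tlr7 (−0.86) in Malat1-rich cells, for Tlr4 (0.86, on 0 uninjured UMIs) in deep cells, and for Tlr2 (0.96), Tlr4 (0.43), Nfkbiz (0.055) and Tnfaip3 (0.41) in Malat1-poor cells, which hold at most 1 uninjured UMI of each. Of the genes not called, Nfkbia (0.28) was −0.25 with equal weight, −0.29 thinned, −0.60 under 5000 UMIs and −0.91 in Malat1-rich cells, Tlr13 (0.27) was −0.70 in deep cells, and Myd88 (−0.39) was 1.16 in Malat1-poor cells and 0.027 without its top uninjured cell. The causes were not tested. Of all 126 alternatives for single genes, 16 thus changed sign and 110 kept it. Among all genes, 1317 higher and 876 lower became 798 and 583 with a pseudocount of 50 CPM and 2982 and 3101 with every gene that had a UMI, since more genes were compared, and 2002 were higher in deep cells. Depth limits Tlr4, Tlr7, Tlr13 and Myd88, with 1 to 3 uninjured UMIs each. No paired analysis was possible because each group is 1 library and no test was made.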
